A study of Homo sapiens with 34 samples.

Results

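The regions described here are baseline m6Am peaks of HEK293T cells that were also listed under hypoxia. They were selected on their position alone: a span of the baseline list was taken where it shared at least 1 bp with any span of the list of peaks that differed under hypoxia, whatever the direction. Of the 1652 baseline peaks, 223 (13.5%, 95% Wilson interval 11.9 to 15.2%) were taken, and the other 1429 served for comparison. From the side of hypoxia, 220 of the 385 distinct spans (57.1%, 52.2 to 62.0%) overlapped a baseline peak and 165 overlapped none. Counts refer to the lists as used here, 390 lines for hypoxia with repeats. These counts are what the selection rule fixed, and nothing is read from them.

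HEK293T cells are a widely used line derived from human embryonic kidney. In the m6Am-seq assay, RNA fragments carrying the cap were enriched with an antibody to m7G, treated with the demethylase FTO in vitro or left untreated, and enriched again with an antibody that binds both m6Am and m6A, so that m6Am is the signal lost on FTO treatment. The wild-type cells of the baseline list were represented by 2 libraries each of FTO(-) m6A-IP, FTO(+) m6A-IP, m7G-IP and input. For the stress lists, cells kept at 1% oxygen for 24 h, cells heated to 43 °C for 2 h with 6 h of recovery, and untreated control cells were each represented by 2 libraries of every immunoprecipitation and 1 input. No gene deletion is named in the labels of any of these cells. PCIF1-knockout libraries also belong to the series and were not used here.

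m6Am is a methylated adenosine that lies next to the mRNA cap, at the first transcribed base. The methyltransferase PCIF1 writes it during transcription, and FTO can remove it. Under low oxygen the HIF transcription factors bind short promoter elements and raise genes of glycolysis and oxygen supply, while the unfolded protein and integrated stress responses act through factors such as ATF4, ATF3 and DDIT3.

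Each condition was given as 1 list of spans with a gene name. The baseline list carried no replicate, count or score. The stress lists carried no replicate or count, and their log2 fold change, the authors' own comparison, was not used, so the depth and the replicate spread behind a peak are unknown, and no difference below was tested. Intervals are 95% Wilson intervals and cover counting error only, since peaks are not replicates of a condition. A span is the outer extent of a peak on hg19, introns included.

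Of the members, 10 had the same start and end in both lists and an A at an annotated transcription start site (TSS) within 10 bp of the 5′ end of the span. They are shown first because an annotated start site with an A and the identical ends can be seen in them. The lists do not place m6Am within a span, and the A is the annotated base alone. Each line gives 30 bases of the transcribed strand of hg19, from 20 bases before the TSS, with the TSS base in capitals.
ANGEL2: gcagaattccgggttaaggcAttcagggac
PPIL3: ttgtcgttttggtttgagatAggaagatga
PTPRG: ctctgccaggatccatgctcAcatgttact
ROBO1: tgtgggggaaacccacaagcAattgagctg
ATG3: gtcacgtgccgggagagtctAgtgtcacgt
MYLIP: gtccctgtcgcagcgcaggcAgttgggctg
UBE2H: gaggtgacgtcacggcgcccAgagcgaggc
DHCR7: agggtccgcctccgattggcAggcaatcgc
ALDH3A2: tgaggctttgggtcgagctcAgtcctcccc
KHSRP: ctcccagcggctgggttcccAgagtgctcc

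These windows lie at chr1:213189200-213189229 (ANGEL2, minus strand), chr2:201753850-201753879 (PPIL3, minus), chr3:61547223-61547252 (PTPRG, plus), chr3:79068600-79068629 (ROBO1, minus) and chr3:112280800-112280829 (ATG3, minus). The others lie at chr6:16129297-16129326 (MYLIP, plus), chr7:129592791-129592820 (UBE2H, minus), chr11:71159472-71159501 (DHCR7, minus), chr17:19552044-19552073 (ALDH3A2, plus) and chr19:6424813-6424842 (KHSRP, minus). In 8 of the 10 the A follows a C and sits in the BCA context, where B is C, G or T. In 6 of the 10 the span begins exactly on the TSS. The A was part of how these 10 were chosen. Of all members with a 5′ end within 10 bp of a TSS and an A there, 29 of 41 held BCA, beside 171 of 277 others. PTPRG, a receptor tyrosine phosphatase, had a span of 241 bp inside 1 exon that did not touch coding sequence. ROBO1, a receptor for Slit guidance cues, had 181 bp in 1 exon and was listed with the same start and end under heat shock. ATG3, an E2-like enzyme of autophagy, and UBE2H, a ubiquitin-conjugating enzyme, had spans of 181 and 271 bp, both within 1 exon and outside coding sequence. MYLIP, a ubiquitin ligase for the LDL receptor, had 239 bp in 1 exon that reached coding sequence. ALDH3A2, a fatty aldehyde dehydrogenase, had the shortest span of the 10, 150 bp. The longest, 2524 bp over 3 exons of ANGEL2, reached coding sequence as well. DHCR7, the enzyme of the last step of cholesterol synthesis, had 795 bp over 2 exons.

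Members of the hypoxia and HIF target list came next. Of 9 genes of that list with a baseline peak, 4 were members (44.4%, 18.9 to 73.3%), beside 13.5% of all baseline peaks: HK2, BHLHE40, STC2 and ENO2. The other 5 were EPAS1, MXI1, SLC2A3, HIF1A and HMOX1. The list holds few peaks, and its interval is wide. The 5′ end of all 4 members was the same in both lists, as it was for 156 of the 210 members with a matched gene. HK2, the hexokinase of the first step of glycolysis, had a baseline span of 390 bp at chr2:75061129-75061518 and a hypoxia span of 360 bp that ended 30 bp earlier. BHLHE40, a basic helix-loop-helix repressor known to respond to HIF, had the identical span of 239 bp in both lists, at chr3:5021097-5021335. ENO2, a glycolytic enolase, had 1461 bp at baseline and 1990 bp under hypoxia, starting at the same base, chr12:7023614. STC2, the secreted glycoprotein stanniocalcin 2, had 1284 bp at chr5:172755223-172756506 in both lists, and its upstream end lay 1056 bp before the nearest annotated TSS.

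Matches to HIF letters around the annotated start sites of these genes are shown because HIF binds such letters. The letters searched for the HIF site were ACGTG and GCGTG, on both strands, from 250 bases before to 50 bases after the TSS nearest the 5′ end of the span. Windows of 30 bases read along the transcribed strand, with the match in capitals (CACGT and CACGC are the same elements on the other strand).
HK2, 48 bases before the TSS: aatgggcgtgcgCACGTcactgatccggag
HK2, 55 bases before the TSS: cgcagccaatggGCGTGcgcacgtcactga
BHLHE40, 174 bases before the TSS: ggcagtggccagACGTGcctggagtcacag
BHLHE40, 149 bases before the TSS: cacagggtagaaCACGTagctccaacccac
ENO2, 76 bases before the TSS: acccgcgctcgtACGTGcgcctccgccggc
STC2, 189 bases before the TSS: acgcacgcaaacGCGTGgccgccgccaggt

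These stretches lie at chr2:75061194-75061223 and chr2:75061187-75061216 (HK2, plus strand), chr3:5020936-5020965 and chr3:5020961-5020990 (BHLHE40, plus), chr12:7023614-7023643 (ENO2, plus) and chr5:172755622-172755651 (STC2, minus). Those of HK2, ENO2 and STC2 lie inside the m6Am span, whose 5′ end is upstream of the annotated TSS, and those of BHLHE40 lie upstream of its span. A match describes the letters in the window and not binding of a factor. ACGTG or GCGTG was found in 128 of 210 member windows (61.0%, 54.2 to 67.3%), in 63.4% of the others and in 56.5% of all protein-coding genes, so these letters are common and do not mark out the 4 genes. STC2 held GCGTG or its complement at further positions, and HK2 and BHLHE40 held further matches to ACGTG.

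Of the unfolded protein and integrated stress response list, 3 of 11 baseline peaks were members (27.3%, 9.75 to 56.6%), an interval that includes the 13.5% of all baseline peaks: ATF3, MANF and STC2. ATF3, a stress-induced transcription factor, had 300 bp at chr1:212781970-212782269 and 297 bp under hypoxia. MANF, a secreted factor induced by stress of the endoplasmic reticulum, had 1005 bp at chr3:51422668-51423672 and 1034 bp under hypoxia, from the same start. The other 8 peaks were those of CREB3, SLC3A2 with 2 peaks, SEL1L, PDIA3, NUPR1, ATF5 and ATF4, the factor that drives much of this response. A match to the ATF4 letters TGATGNAA lay 112 bases before the TSS of ATF3, read from the other strand.
ATF3, 112 bases before the TSS: cctccccgaacTTGCATCAccagtgccccc

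This stretch is chr1:212781889-212781918, plus strand. A further member carried the name of a microRNA, MIR616, but its 3084 bp at chr12:57911217-57914300 ended exactly on an annotated TSS of DDIT3, the transcription factor CHOP of the same response, which lies on the minus strand. The hypoxia span ended on the same base. The window of DDIT3 is printed because that end falls on its annotated TSS, whose base is in capitals.
DDIT3: gattacagccaggcgctcccGaggtcagag

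It lies at chr12:57914291-57914320, minus strand, and the start base is a G. The list count above does not include it, as lists were matched by the name given, and it was singled out after its values were seen.

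Among symbols of heat shock proteins and cochaperones (HSP, DNAJ, BAG, CCT and others), 3 of 11 baseline peaks were members (27.3%, 9.75 to 56.6%), an interval that again includes 13.5%, and all 3 were J-domain proteins. The other 8 were DNAJC8, HSPD1, FKBP5, BAG2, DNAJC30, DNAJB6, BAG3 and DNAJC24. DNAJB1, the inducible cochaperone of HSP70, had 1717 bp at baseline and 387 bp under hypoxia from the same 5′ end, and DNAJC21 had 4263 and 300 bp. DNAJC12 had 14808 and 14831 bp. Both shorter hypoxia spans covered a small part of the baseline span, 22.5% for DNAJB1 and 7.04% for DNAJC21, so that 1 of the 3 was left where at least 50% of both spans had to be shared. DNAJB1 held a pair of matches to GAANNTTC, the core of the heat shock element, 67 and 37 bases before its TSS.
DNAJB1, 67 bases before the TSS: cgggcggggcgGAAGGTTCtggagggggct
DNAJB1, 37 bases before the TSS: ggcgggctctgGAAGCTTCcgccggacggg

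They lie at chr19:14629268-14629297 and chr19:14629238-14629267, minus strand, inside the span of the peak.

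The lists that follow, like that of heat shock proteins, were drawn by how a gene symbol begins or ends and not by function, so each count holds for such symbols and not for the whole class. Members of these classes whose symbols fit no list entry include MYLIP and HERC3 for ubiquitin, KHSRP, SLU7, PNN, PCF11, SCAF4, PSPC1 and MTREX for RNA processing, and LIG1, ECT2, ZWILCH, OIP5, HAUS6, DBF4B and TERF1 for cell division and DNA repair. For chromatin they include KAT5, KAT7, JARID2, SAP30, PHC3, PCGF2, INO80E and JADE3. Such genes among the other baseline peaks are not listed, so these names do not bear on the shares below. Some symbols were taken in by their letters alone, as ZBTB8OS among zinc fingers, KIF1BP among cell division genes and PRPS1 among kinases. All these genes were named after their values were seen. Lists were matched by the name of a span, which is not always the gene that starts there. As examples, the spans named RPA3, CENPP and EXOC5 had an end within 100 bp of a TSS of UMAD1, NOL8 and AP5M1.

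Symbols of histones and chromatin regulators, such as those beginning with HIST, KDM, KMT, HDAC or SETD, had 10 members among 38 baseline peaks (26.3%, 15.0 to 42.0%), beside 13.5% of all baseline peaks. The first by position were HIST2H2BE and HIST1H2BD, both histone H2B genes, with spans of 120 and 146 bp. The others were ARID1B, KMT2E, KMT5B, KDM2B with 2 peaks, PHF23, SETD4 and HDAC8. Both KDM2B peaks overlapped the same hypoxia span of 2080 bp and are therefore not independent, and 6 of the 10 were left where at least 50% of both spans had to be shared. That is 15.8% of the 38 (7.44 to 30.4%), an interval that includes the 10.8% of all baseline peaks under the same rule, so the higher share of this list was not kept. Ubiquitin and proteasome symbols (UBE2, USP, CUL, FBX, RNF, KLHL, PSM and others) had 7 of 49 (14.3%, 7.10 to 26.7%), UBE2H and FBXO25 first by position. Vesicle and endosome traffic symbols (RAB, VPS, EXOC, STX and others) had 7 of 50 (14.0%, 6.95 to 26.2%), among them EXOC8, a subunit of the exocyst, and RAB5A, a GTPase of early endosomes, and 4 of these 7 were left under the stricter overlap. Symbols of solute carriers and transporters had 6 of 41 (14.6%), with SLC10A7 and SLC17A5 first, and those of kinases and phosphatases 6 of 39 (15.4%), with NEK2, a centrosomal kinase, and PTPRG first.

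The remaining lists of symbols are given by their counts alone. Zinc finger symbols had 6 of 47 (12.8%), with ZBTB8OS and ZSCAN16 first, and symbols of the mitochondrial ribosome, respiration and import had 3 of 22 (13.6%), with NDUFA2, a subunit of respiratory complex I, and UQCC3 first. Symbols of developmental transcription factors had 4 of 35 (11.4%), among them HES1, a Notch target, and DLX6. The 2 DLX6 peaks overlapped the same hypoxia span of 1701 bp, which covered 4.91% of the longer one, and are not independent. Splicing, RNA-binding and helicase symbols (RBM, DDX, DHX, NCBP, CPSF and others) had 3 of 30 (10%), with DDX41 and NCBP1 first, and cell division, replication and DNA repair symbols (CDC, MCM, CENP, RPA, KIF and others) 3 of 38 (7.89%), with RPA3 and CENPP first. Names of noncoding and antisense genes had 13 of 110 (11.8%, 7.04 to 19.2%), with LOC101927765 and MEF2C-AS1 first. Of cytosolic ribosomal protein names, 1 of 3 was a member, RPL7L1 (33.3%, 6.15 to 79.2%). Symbols of translation factors and tRNA synthetases had 0 of 16, with an upper Wilson bound of 19.4%. Over all 16 lists together, 78 of 533 peaks were members (14.6%, 11.9 to 17.9%).

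**Figure D1:**
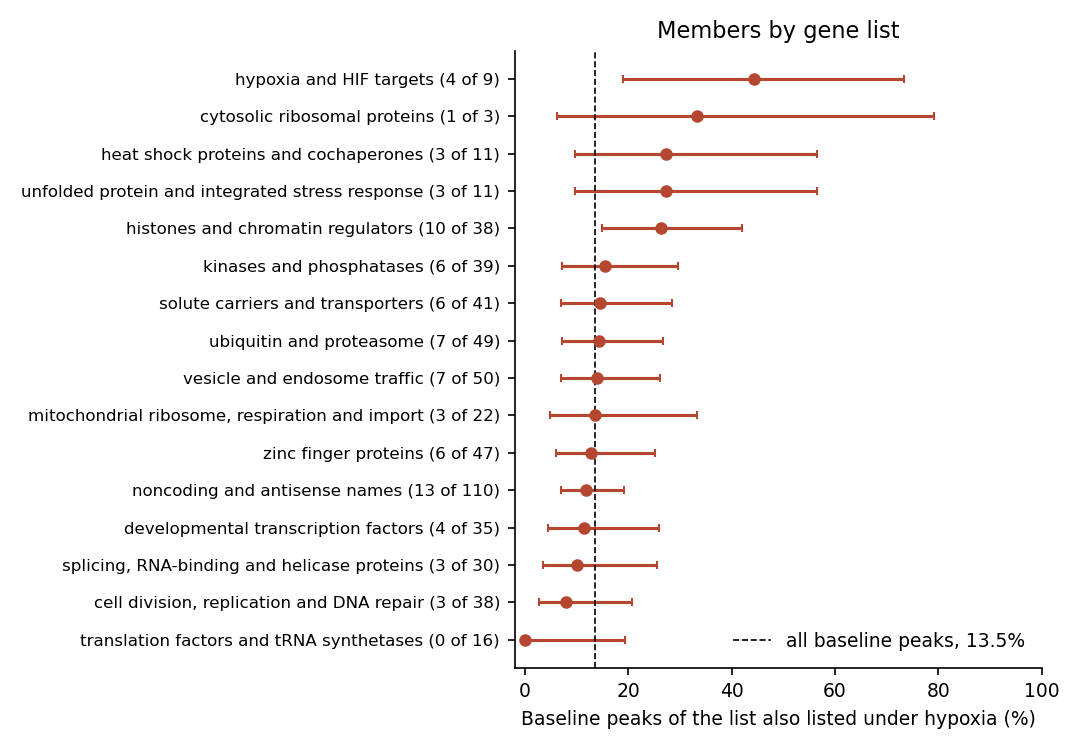
Share of baseline peaks of each gene list, drawn by symbol and not complete for the class it names, that were also listed under hypoxia (x axis, percent), with 95% Wilson intervals and the count beside each list name on the y axis. The dashed line marks the 13.5% of all baseline peaks, and the intervals of hypoxia and HIF targets (18.9 to 73.3%) and of histones and chromatin regulators (15.0 to 42.0%) lie above it, the latter at the overlap of 1 bp but not where at least 50% of both spans had to be shared (7.44 to 30.4% beside 10.8%). The lists were drawn with earlier results of these data known, so an interval above the line is not a test.

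Baseline and hypoxia spans of members coincided mainly at the 5′ end. Per the study's methods, exomePeak called peaks on a RefSeq annotation, so a span can be cut at an annotated transcript edge. How far this set the shared ends was not tested, and no stability of the mark is read from them. A gene of the given name overlapped the span in the annotation for 210 of the 223 members (94.2%) and for 1351 of the 1429 others (94.5%), and directions follow that gene. For 156 of the 210 (74.3%, 68.0 to 79.7%) the 5′ end was the same base in both lists, against 56 (26.7%, 21.1 to 33.0%) for the 3′ end. A difference of 1 to 31 bp was seen for 17 members at the 5′ end and 71 at the 3′ end. Of these, 14 and 44 differed by 28 to 31 bp. Ends over 300 bp apart were found in 16 members at the 5′ end and 46 at the 3′ end. Where the 3′ end moved, the hypoxia span ended upstream in 79 members and downstream in 75, and where the 5′ end moved it began upstream in 17 and downstream in 37.

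**Figure D2:**
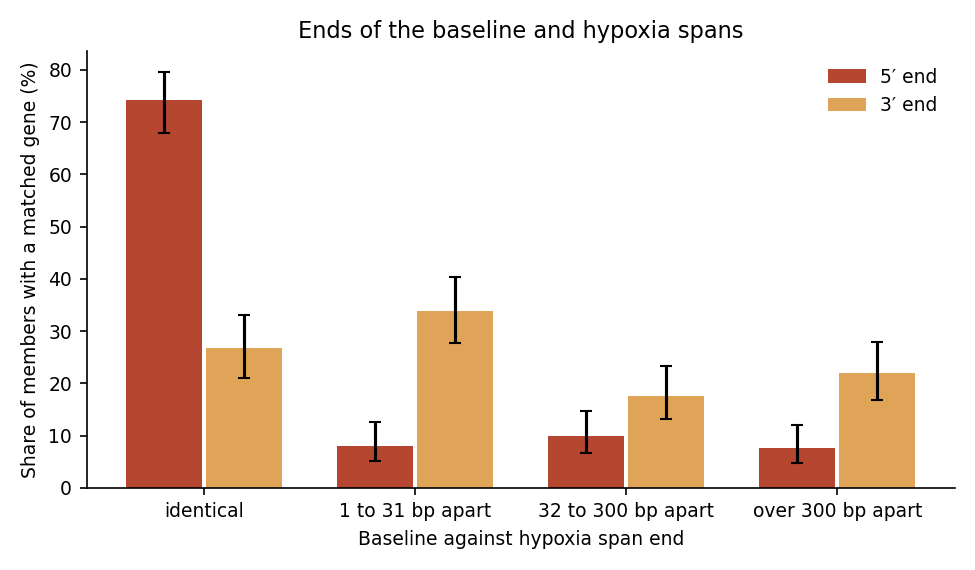
Share of the 210 members with a matched gene (y axis, percent, 95% Wilson intervals) by the distance between the baseline and the hypoxia span at the 5′ and the 3′ end (x axis). The 5′ end was identical in 74.3% of members and the 3′ end in 26.7%.

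Both ends were identical in 43 of the 223 members (19.3%, 14.6 to 25%). The baseline span lay wholly inside the hypoxia span in 115 members, the hypoxia span lay wholly inside the baseline span in 130, and at least 50% of both spans were shared in 178 (79.8%, 74.1 to 84.6%). In 10 members (4.48%, 2.45 to 8.06%) under 10% of the baseline span was covered: ATRIP, DNAJC21, MEF2C-AS1, CAST, DLX6, EXOC5, PCGF2, DTNA, CUL4B and LINC00632. The smallest overlaps among members were 108 bp at TSTD2, 114 bp at PPP1R12A and 116 bp at UQCC3. Just outside the rule, the nearest other baseline peaks were those of PHB2, HHLA3 and C6orf106, with 27, 75 and 94 bases between them and a hypoxia span. A further C6orf106 peak, 210 bp at chr6:34664418-34664627, was itself a member with the identical span.

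Gene names differed between the lists for 7 members (3.14%, 1.53 to 6.34%). MEF2C-AS1 was listed as MEF2C under hypoxia, TRAF3IP2-AS1 as TRAF3IP2, ARID1B as MIR4466, RPA3 as UMAD1, TSTD2 as NCBP1, ZFP91-CNTF as ZFP91 and UQCC3 as LBHD1. The ZFP91 spans were nevertheless identical, 299 bp. RPS14P3 was the 1 member that overlapped more than 1 hypoxia span: its 26544 bp began on the same base, chr1:19923471, as hypoxia spans of 58110 bp (NBL1), 20359 bp (RPS14P3) and 3887 bp (MINOS1). An annotated TSS of MICOS10 lies on that base. In 16 matched members the 5′ end lay over 1000 bp from any TSS of the named gene. In 10 of these another gene started within 100 bp of an end of the span, 8 times on the other strand, and the same held for 10 of the 13 members without a matched gene. The span named BANF1 ended exactly on a TSS of EIF1AD, that named CENPP on a TSS of NOL8, and that named S100A13 began on a TSS of CHTOP, examples chosen after their values were seen. Of these 20 members, 14 kept the 5′ end on the strand of that other gene under hypoxia. The name of a span is thus not always the gene that starts there, and the directions given for such members follow the name.

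Length entered the selection rule, as a longer span overlaps another more easily, so lengths are given as a description alone. At the overlap of 1 bp, median lengths of members and the others were close. The median outer span was 1184 bp for members and 1246 bp for the others, with quartiles of 300 and 8748.5 bp against 271 and 9937 bp. Counting exonic bases alone, the medians were 360.5 and 354 bp. Where at least 50% of both spans had to be shared, the median outer spans were 861.5 bp for members and 1268 bp for the others. The share of members was 12.8% among peaks of up to 300 bp, 15.0% above that and up to 1000 bp, 14.4% from there to 3000 bp, 13.0% from there to 10000 bp and 13.0% for longer spans. The shortest members were HIST2H2BE, CTBP2, a transcriptional corepressor, and PPP1R12A, a subunit of myosin phosphatase, at 120 bp each. The longest were RPA3 (236656 bp), DTNA (186193 bp) and DSE (145219 bp), whose hypoxia spans had 35554, 210 and 145218 bp. For DSE, a dermatan sulfate epimerase, nearly the whole outer span was shared, whereas for DTNA, a dystrobrevin, 0.113% of it was.

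**Figure D3:**
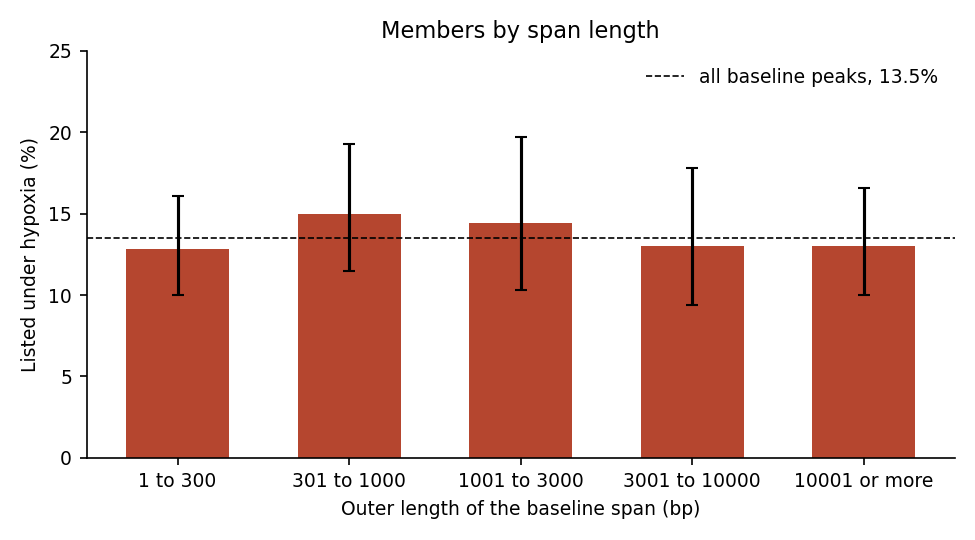
Share of baseline peaks also listed under hypoxia (y axis, percent, 95% Wilson intervals) by the outer length of the baseline span in bp (x axis). Shares lie between 12.8 and 15.0%, and the interval of every length class includes the dashed line at 13.5%. Length entered the selection rule, so the shares are a description.

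Members sat on transcription starts as often as the others. The 5′ end lay within 100 bp of an annotated TSS of the named gene in 172 of 210 members (81.9%, 76.1 to 86.5%) and in 1112 of 1351 others (82.3%, 80.2 to 84.3%). It fell exactly on a TSS in 56 members (26.7%) and 365 others (27.0%). Members touched 1 exon in 107 cases (51.0%, 44.2 to 57.6%), against 46.4% of the others (43.8 to 49.1%), and reached coding sequence in 128 (61.0%, 54.2 to 67.3%), against 63.4% (60.8 to 66.0%). Protein-coding genes made up 94.3% of matched members and 94.1% of matched others. A gene on the opposite strand that started at or up to 1000 bp upstream of the TSS, protein-coding or lncRNA, was found for 85 members (40.5%, 34.1 to 47.2%) and 436 others (32.3%, 29.8 to 34.8%). With protein-coding neighbours alone the shares were 21 and 19.4%, an alternative chosen after seeing the data. Within 500 bp they were 37.6 and 29.5%, and with at least 50% of both spans shared 39.5 and 32.6%, both likewise chosen.

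The base at the start site depended on which TSS was read. At the annotated TSS nearest the 5′ end, an A stood in 97 of 210 members (46.2%, 39.6 to 52.9%) and 612 of 1351 others (45.3%, 42.7 to 48%), and a G in 34.8 and 35.3%. The A was in the BCA context in 58 members (27.6%, 22 to 34%) and 380 others (28.1%, 25.8 to 30.6%). At the TSS of the canonical transcript of protein-coding genes, a reading added after seeing the data, an A stood in 125 of 198 members (63.1%, 56.2 to 69.5%) and 763 of 1270 others (60.1%, 57.4 to 62.7%). Over all 19881 protein-coding genes the canonical TSS held an A in 50.7% (50 to 51.4%) and BCA in 34.4%, beside BCA in 45.5% of members (38.7 to 52.4%) and 40.7% of the others (38.0 to 43.4%). Members and others thus both held more A at canonical starts than all genes, and were close to each other.

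Promoters of members resembled those of the other baseline peaks. Median GC over the 250 bases before to 50 bases after the TSS was 64.0% for members, 63.7% for the others and 63.7% for all protein-coding genes, and the median observed over expected CpG was 0.858, 0.825 and 0.776. Mean GC rose towards the TSS to 67.5% in members, 67.0% in the others and 66.9% in all genes over the last 25 bases before it. The HIF letters ACGTG were present in 54 of 210 member windows (25.7%, 20.3 to 32%), 26.8% of the others and 23.3% of all genes, and GCGTG in 48.1, 51.2 and 45%. ACGTG lies within the E-box CACGTG, which 22 of those 54 windows held. The heat shock letters GAANNTTC were in 16 member windows (7.62%, 4.74 to 12%), 5.92% of the others and 5.42% of all genes.

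**Figure D4:**
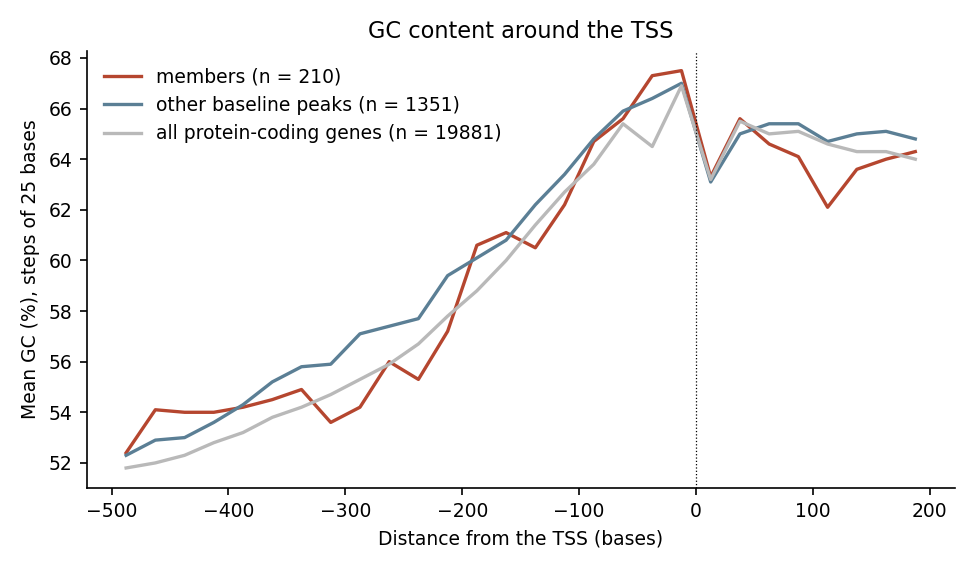
Mean GC content (y axis, percent, steps of 25 bases) against the distance from the TSS in bases (x axis) for members, the other baseline peaks and all protein-coding genes. The y axis does not start at 0, and in the last step before the TSS the lines stand at 67.5, 67.0 and 66.9%.

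The cAMP response element TGACGTCA was found in 2.86% of members, 2.44% of the others and 2.68% of all genes, and the ATF4 letters TGATGNAA in 1.90, 2.29 and 2.49%. CCAAT was present in 39.5% of members, 40.3% of the others and 36.0% of all genes, and TATAAA in 9.05, 7.33 and 9.62%. Among elements of housekeeping promoters, the ETS letters CCGGAAG were in 18.6% of members, 18.1% of the others and 14.1% of all genes. The GC box GGGCGG stood at 68.6, 69.9 and 61.4%, the NRF1 letters GCGCATGC at 5.71, 6.29 and 4.27%, the YY1 letters AAGATGGCG at 4.76, 4.74 and 2.85%, and the E-box at 10.5, 11.2 and 8.76%. For each of these 12 motifs the Wilson interval of members included the share of the others. The TSS of a peak was the annotated start nearest its 5′ end and that of a gene its canonical start, so the third value of each set was read at a different kind of start.

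**Figure D5:**
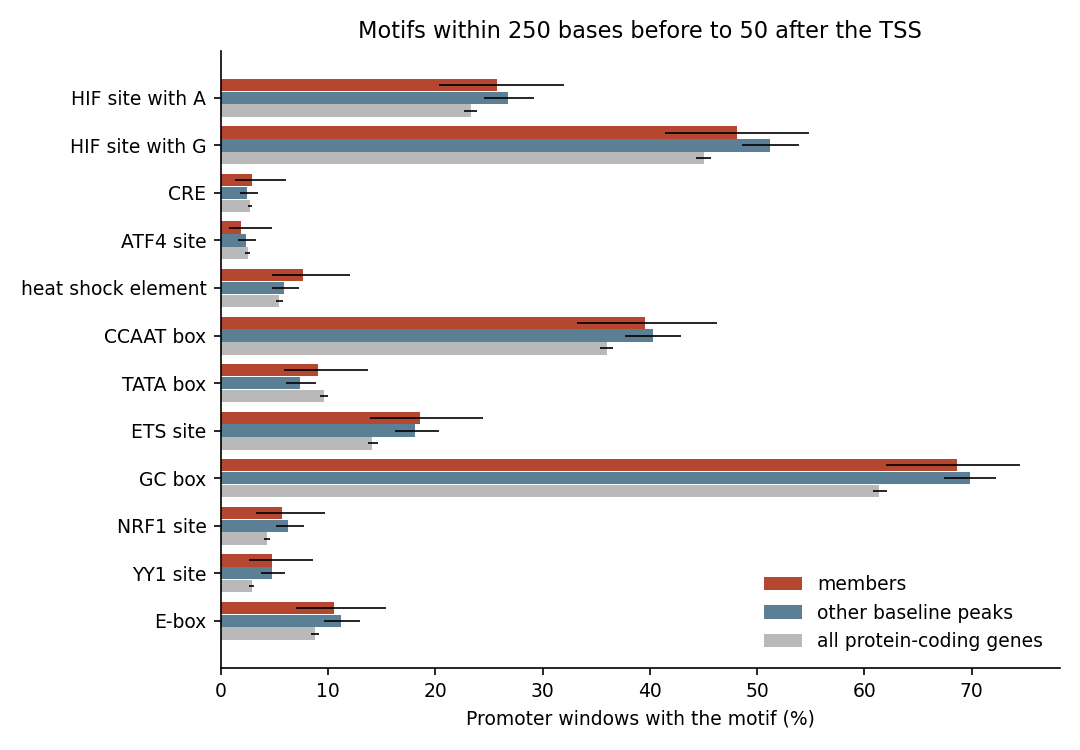
Share of promoter windows (x axis, percent, 95% Wilson intervals) that hold each of 12 motifs (y axis) for members, the other baseline peaks and all protein-coding genes. Bars of members and of the other baseline peaks lie close together, as for ACGTG at 25.7 and 26.8%.

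The heat shock list was made against the same untreated libraries as the hypoxia list, so no overlap between the stress lists is given, and spans are set side by side for the members named above that had a heat shock span. STC2 spanned 1284 bp at baseline and under hypoxia and 359 bp under heat shock, at chr5:172755193-172755551. HIST2H2BE spanned 120 bp at baseline and 149 bp in both stress lists, and KIF1BP 360 bp at baseline and 330 bp in both stress lists. KHSRP, an RNA-binding protein of mRNA decay, spanned the same 359 bp in all 3 lists, and ROBO1 the same 181 bp. C6orf106 spanned 210 bp at baseline and under hypoxia and 240 bp under heat shock. EXOC8 spanned 1256 bp at baseline, with a hypoxia span at chr1:231473289-231473618 and a heat shock span at chr1:231472901-231473140. UQCC3 spanned 151 bp at baseline, 748 bp under hypoxia and 181 bp under heat shock.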

How the data were processed

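Per the file headers, the deposited tables held base positions and gene names, 1 list per condition. Per the study's methods, the authors trimmed reads with Trim Galore 0.6.6, aligned them to hg19 with HISAT2, called peaks with exomePeak and MACS2, kept those overlapping an m7G-IP peak, called m6Am by the FTO(-) to FTO(+) ratio with exomePeak and DESeq2, and named peaks with HOMER. How replicates were combined is not given in the sources used here. Peaks of the stress lists were those the authors called different from untreated cells. Many ends differed between lists by about 30 bases, so an end is not resolved to the base. The stress lists also held a log2 fold change, the authors' own comparison, which was not used. In 1 PCIF1-knockout library the title and the description name different immunoprecipitations, and the title was followed.

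Spans were compared with Python 3.11.15 (numpy 2.4.6, scipy 1.17.1) at an overlap of 1 bp, with code tested on simulated data. Figures were drawn with matplotlib 3.10.9. Names were matched to Gencode 44 lifted to GRCh37, older symbols included and a date such as 7-Sep read as SEPT7, which gave a gene for 1561 of 1652 peaks (94.5%), and sequences were read from GRCh37 with pyfaidx 0.9.0.4. Starts and ends were read as 1-based. Shares carry 95% Wilson intervals. Named genes were members of the hypoxia, unfolded protein and heat shock lists, the 3 shortest and 3 longest members, those with several hypoxia spans or differing names, those with identical spans and an A at the TSS, and the first 2 by position of each other list. Chosen outside this rule, after their values were seen, were the other histone and chromatin members, those with under 10% of the span covered, the peaks nearest the overlap threshold, MIR616, BANF1, S100A13 and the class members that the lists leave out or take in by their letters alone. Other baseline peaks of the hypoxia, unfolded protein and heat shock lists are all named as well. The hypoxia and unfolded protein lists were sets of chosen symbols, and the other 14 were drawn by symbol patterns and are not complete. Members and lists were chosen with earlier results of these data known.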

Additional observations from a re-analysis of the deposited data

How the results depend on the processing

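No paired analysis was possible because the lists carry no replicate, although the labels of the libraries share replicate numbers. Of 95 alternative values for 49 results, 59 lay within the interval of the reported value, or for counts within 1.5 times of it, and 36 did not. The cause was not tested except where the alternative itself sets the value, as with fewer or shorter spans, wider windows or looser criteria. At least 50% of the baseline span was covered in 189 members and at least 50% of both spans in 178, within 1.5 times of the 223, whereas 43 members had identical spans. With both spans limited to 1000 bp, 98 members were left. Counting exonic bases alone, median lengths were 360.5 bp for members and 354 bp for the others. With a limit of 50 bp to the TSS, shares were 70.5 and 72.3%.

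An A at the TSS or 1 base to either side was found in 61.9% of members and 60% of the others. With protein-coding transcripts alone an A was found in 50.3% of members, within the reported interval, and in 48.4% of the others, beyond it. Alternatives chosen after seeing the data gave 63.1 and 60.1% with an A at the canonical TSS, and 21 and 19.4% with a protein-coding divergent neighbour. A divergent neighbour within 500 bp, chosen likewise, was found for 37.6% of members and 29.5% of the others.

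A window from 500 bases before to 100 after the TSS moved 19 of 24 motif shares, and the stricter overlap moved 0. In the wider window, shares of members and others were 45.2 and 43.7% for ACGTG, 68.6 and 68.2% for GCGTG, 6.19 and 4.89% for TGATGNAA, 12.4 and 11.8% for GAANNTTC, and 58.1 and 55.3% for CCAAT. They were 19 and 16.4% for TATAAA, 76.2 and 79.7% for GGGCGG, and 15.7 and 17.2% for CACGTG, and for the others alone 21.7% for CCGGAAG, 8.07% for GCGCATGC and 6.22% for AAGATGGCG. With at least 50% of both spans shared, list counts of members were 1 for heat shock proteins, 4 for vesicle traffic and 6 for histones and chromatin regulators, and 13 other lists stayed within 1.5 times. Depth and scores were not used here.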
